A study of Mus musculus with 8 samples.

Results

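The 10 genes described here, Ihh, Ptch1, Gli1, Nr2f2, Hand2, Calb1, Il13ra2, Lrp2, Fst and Gata2, belong to the progesterone and implantation pathway of the mouse uterus, and were chosen by gene symbol from the 52325 genes of the deposited count table. RNA-seq was carried out on endometrium of 4 WT and 4 Thra1PV/+ female mice, all of them matched at metestrus and captured by laser from frozen sections of the uterus. Thra1PV/+ mice carry the PV mutation in one allele of Thra, which makes a dominant negative thyroid hormone receptor TRα1, in every tissue that uses the gene, and WT mice carry no mutated allele. All mice were synchronized with soiled male bedding, and no hormone treatment is described for them, so the comparison was of the cycling uterus. The captured endometrium held epithelium and stroma together. The ages of these mice and the strain are not given in the sources used here. Libraries are named Mut1 to Mut4 for Thra1PV/+ and WT1 to WT4 for WT endometrium, and the numbers only name them.

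Progesterone acts through its receptor in the uterine epithelium to switch on Ihh, which encodes the secreted signal Indian hedgehog. The signal crosses to the stroma, where it binds the receptor Patched 1 and activates GLI transcription factors, and Ptch1 and Gli1 are themselves transcribed in response, so their RNA is widely read as a measure of hedgehog signalling. In the stroma the pathway leads to the orphan nuclear receptor COUP-TFII, encoded by Nr2f2, and to the transcription factor HAND2, which restrains the growth factor signals by which the stroma keeps the epithelium dividing, so that the epithelium becomes receptive to an embryo. The other members are genes of the progesterone-exposed uterus: Calb1 (a calcium-binding protein), Il13ra2 (a decoy receptor for interleukin 13), Lrp2 (the endocytic receptor megalin), Fst (follistatin, which binds activins) and Gata2 (a transcription factor that works with the progesterone receptor).

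The sequence upstream of 3 of these genes is shown: that of Ihh because it heads the pathway, and those of Lrp2 and Il13ra2 because both genes had their highest value in the same single library by a wide margin. RefSeq (GRCm38.p6) promoter entries were found for 7 of the 10 genes, Ihh, Ptch1, Nr2f2, Hand2, Il13ra2, Lrp2 and Gata2. The 250 bases before the start site are printed 5′ to 3′ in the direction of the gene, at chr1:74951673-74951922 (minus strand), chr2:69586030-69586279 (minus strand) and chrX:147429193-147429442 (minus strand), with the motifs found in capitals.
Ihh: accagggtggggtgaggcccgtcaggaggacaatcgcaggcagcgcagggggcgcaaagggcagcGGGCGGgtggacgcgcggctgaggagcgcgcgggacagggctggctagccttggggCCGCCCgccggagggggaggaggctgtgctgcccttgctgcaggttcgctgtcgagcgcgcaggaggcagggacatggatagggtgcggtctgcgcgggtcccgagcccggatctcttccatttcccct
Lrp2: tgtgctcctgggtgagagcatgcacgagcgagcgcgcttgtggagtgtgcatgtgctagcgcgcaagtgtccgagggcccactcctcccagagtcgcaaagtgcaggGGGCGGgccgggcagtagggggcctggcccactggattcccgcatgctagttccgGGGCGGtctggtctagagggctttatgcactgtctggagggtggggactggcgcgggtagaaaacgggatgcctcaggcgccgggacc
Il13ra2: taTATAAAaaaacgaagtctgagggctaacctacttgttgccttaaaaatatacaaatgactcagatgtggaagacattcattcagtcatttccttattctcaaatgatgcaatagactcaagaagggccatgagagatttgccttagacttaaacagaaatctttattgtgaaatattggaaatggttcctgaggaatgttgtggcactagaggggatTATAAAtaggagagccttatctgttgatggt
The capitals mark the GC box GGGCGG, read as CCGCCC on the other strand, and the TATA box TATAAA. The Ihh and Lrp2 windows each held 2 GC boxes, whose first bases lay 185 and 129 bases before the Ihh start site and 143 and 88 bases before that of Lrp2. The Il13ra2 window held no GC box and 2 TATA boxes, at 31 and 248 bases before the start site. Of 32817 mouse promoter windows of the same length, 32.7% held a GC box and 12.4% a TATA box. The GLI motif GACCACCCA, the progesterone response element ACANNNTGT and the thyroid response half-site AGGTCA, searched on both strands, had no match in the windows of these 7 genes, and were present in 0.225%, 5.84% and 14% of all windows. These matches describe the letters in the windows only.

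The deposited estimated counts summed to between 48791602 and 59818887 per library, and CPM (counts scaled to a common library size after TMM normalization) is used throughout for one gene across libraries. Between pairs of libraries, Pearson's r of log2 CPM was 0.901 to 0.974 within a genotype and 0.861 to 0.957 between genotypes. Thra RNA was similar in both genotypes, at 80.1 ± 34.2 CPM in Thra1PV/+ and 78.0 ± 33.7 in WT (SD, n = 4), and a count over the whole gene cannot separate the PV allele from the normal one. Markers of simple epithelium and of endometrial stroma were present in every library, with summed values of 2785 to 7695 CPM for the 12 epithelial markers and 680 to 8193 CPM for the 12 stromal markers. The mean log2 CPM of the stromal markers was 8.52, 5.15, 6.20 and 6.60 in Mut1 to Mut4, and 8.74, 8.82, 6.56 and 7.23 in WT1 to WT4. Mut1, WT1 and WT2 were therefore richest in stromal RNA, and Mut2 was the poorest. The same mean for simple epithelium was 7.63 to 7.80 in these 3 libraries and 8.56 to 9.01 in the other 5. All 12 markers of squamous epithelium had a higher fitted value in Thra1PV/+, and 8 were called, with summed values of 2916 to 4529 CPM in Thra1PV/+ and 19.4 to 83.9 CPM in WT. Smooth muscle markers summed to 13143 CPM in WT1, against 146 to 1146 CPM in the other 7 libraries. All 8 smooth muscle markers were lower in Thra1PV/+ at an unadjusted p under 0.05 and 0 were called, and their mean log2 CPM was 3.95 ± 1.42 in Thra1PV/+ and 6.98 ± 2.12 in WT (SD, n = 4), a difference of -3.03 (exact permutation p = 0.0571). Mean log2 CPM of the leukocyte, gland, endothelial and oviduct cilia markers differed by 0.60, 0.25, -0.29 and -0.94 between genotypes (exact permutation p = 0.114, 0.714, 0.629 and 0.114). The gland mean rests on 4 of 8 listed markers, as the others were too low to be tested. The log2 fold changes of the 4 were 0.27 for Foxa2, 0.60 for Sprr2f, -0.69 for Cxcl15 and -1.58 for Wfdc3. This mean is no count of glands, which the study found by histology to be fewer in Thra1PV/+ endometrium. Of the cilia markers 1 was called, Foxj1, the master regulator of motile cilia, with 2.15 to 3.55 CPM in Thra1PV/+ and 12.8 to 22.9 CPM in WT (log2 fold change -2.54 ± 0.27, edgeR adjusted p = 0.00723). In such bulk samples, fewer cells of a type and less RNA per cell cannot be told apart, and the part of these differences in the results below was not tested unless a value is given.

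None of the 10 genes was called between the genotypes. Calling a gene took at least a 2-fold difference and an adjusted p no higher than 0.1 in edgeR's quasi-likelihood test. Of 18174 tested genes 180 were called, 0.99%. Il13ra2 was too low in most libraries to be tested, and the other 9 members had adjusted p-values of 0.384 to 0.989. Gata2 was the single member with an unadjusted p under 0.05, lower in Thra1PV/+, where 9.77% of all tested genes passed that threshold in either direction and 4.72% in the lower direction. DESeq2, which gave a p-value for 8 of the 10 genes (not for Lrp2 and Il13ra2), also called 0 of them, while it called 793 of 21758 genes, 3.64%, and put Fst and Gata2 under an unadjusted p of 0.05. No member had genotypes that did not overlap, against 6.04% of all tested genes.

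All 9 tested members had a log2 fold change below 0, with a median of -1.07. Among all tested genes 56.8% lay below 0 and the median was -0.05. WT2 held the highest value of 8 of the 10 genes, Hand2 (highest in Mut1) and Fst (highest in WT1) being the exceptions, whereas WT2 was highest for 14.6% of all tested genes. Without WT2, 7 of the 9 were below 0 and the median was -0.29, with 51.1% of all tested genes below 0. With library size as the only scaling, 8 of the 9 were below 0, Hand2 being the exception, against 46.7% of all tested genes. WT3 held the lowest value of 4 of the 10 genes, Ihh, Gli1, Hand2 and Fst, and Mut1 was the highest mutant library for 7 of the 10. The members moved together across libraries, as given below, so the 9 directions are not 9 separate observations.

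**Figure D1:**
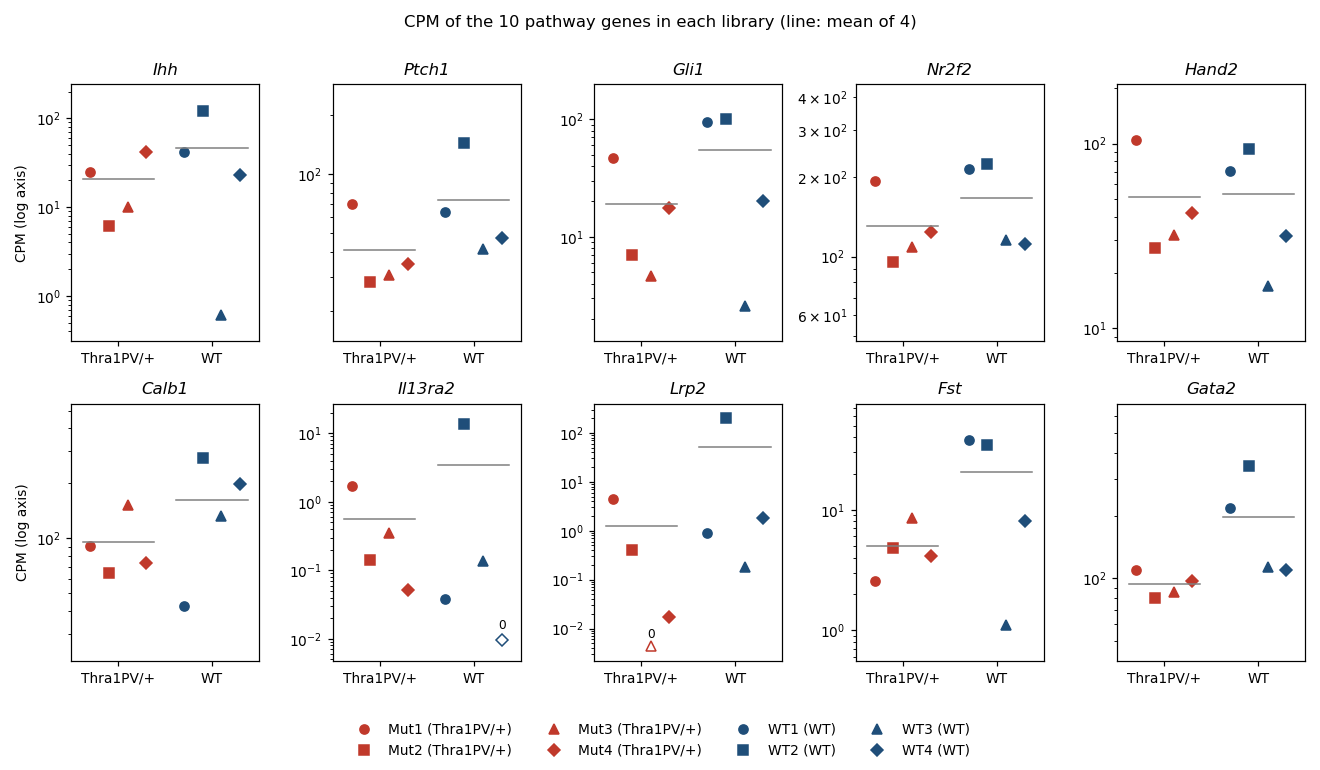
CPM of each of the 10 genes (log axis, each panel on its own scale) in the 4 Thra1PV/+ libraries (red) and the 4 WT libraries (blue). Marker shapes give the replicate, grey lines are means of 4 libraries, and open markers labelled 0 are libraries with no count. WT2, the blue square, tops 8 panels, and Lrp2 and Il13ra2 have their next highest value in Mut1.

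Ihh, the epithelial ligand (GRCm38 chromosome 1, 74945315 to 74951672, minus strand), had 24.7, 6.11, 10.1 and 41.5 CPM in Mut1 to Mut4. In WT1 to WT4 it had 41.6, 122, 0.617 and 23.0 CPM. Both the highest and the lowest of the 8 values were WT libraries, which spanned 197-fold among themselves, and all 4 mutant values fell inside that span. The fitted log2 fold change was -1.18 ± 1.15 (SE, 95% confidence interval -3.81 to 1.45, edgeR adjusted p = 0.804). On the log2 scale the 2 genotypes had nearly the same mean, 3.99 in Thra1PV/+ and 4.06 in WT, and an exact two-sided permutation test over the 70 arrangements of 4 and 4 libraries gave p = 0.971. Without WT2 the log2 fold change was -0.05, and without Mut4 it was -1.78, while voom gave -0.50 and the fits of the TPM values -0.42 and -0.19. The interval runs from a large fall to a rise.

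Ptch1, the receptor (chromosome 13, 63508328 to 63573598, minus strand), varied least of the 3 hedgehog genes. It had 70.2, 28.1, 30.6 and 34.6 CPM in Mut1 to Mut4. Its WT1 to WT4 values were 64.1, 143, 41.2 and 46.9 CPM. Mut2, Mut3 and Mut4 lay below all 4 WT libraries, and Mut1 lay above 3 of them. The log2 fold change was -0.85 ± 0.46 (95% confidence interval -1.91 to 0.20, edgeR adjusted p = 0.612, exact permutation p = 0.2). It was -1.19 without Mut1, when the genotypes no longer overlapped, and -0.29 without WT2.

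Gli1, the transcription factor that reports the signal (chromosome 10, 127329882 to 127341974, minus strand), had 46.3, 6.98, 4.68 and 17.7 CPM in Mut1 to Mut4. The WT libraries, WT1 to WT4, had 94.5, 99.5, 2.59 and 20.2 CPM. The genotypes overlapped widely, as WT3 was the lowest library of all and Mut1 was above WT3 and WT4. Its fitted log2 fold change was -1.52 ± 1.07 (95% confidence interval -3.98 to 0.94, edgeR adjusted p = 0.71, exact permutation p = 0.486), and it was -2.42 without Mut1 and -1.03 without WT2. WT3, the library with the least Ihh, was also the library with the least Gli1, while its Ptch1 stayed near that of WT4. Gli1 shares 62 exon bases with Arhgap9 and 265 with the antisense gene Gm47200, both on the other strand. Arhgap9 had 5.85 to 12.3 CPM and Gm47200 at most 0.0609 CPM. The libraries were made with a stranded kit, but whether the counting used strand is not given in the sources used here.

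Nr2f2, the stromal nuclear receptor (chromosome 7, 70351944 to 70366735, minus strand), had 193, 95.7, 109 and 124 CPM in Mut1 to Mut4. In WT1 to WT4 it had 214, 224, 115 and 111 CPM. In each genotype the highest library was about as far above the lowest, 2.02-fold in Thra1PV/+ and 2.01-fold in WT, the narrowest spread among WT libraries of any member. With genotype alone, the log2 fold change was -0.35 ± 0.32 (95% confidence interval -1.07 to 0.37, edgeR adjusted p = 0.786, exact permutation p = 0.286), with -0.55 without Mut1 and -0.15 without WT2 and in the fits of the TPM values. A change of 2-fold upward is outside this interval, and a fall of 2-fold is just inside it. Nr2f2 shares 643 exon bases with B130024G19Rik on the other strand, which had 5.53 to 21.3 CPM.

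Hand2, the factor that ends the pathway in the stroma (chromosome 8, 57320983 to 57324633, plus strand), had 105, 27.3, 31.9 and 41.8 CPM in Mut1 to Mut4. WT1 to WT4 had 70.7, 93.4, 17.0 and 31.6 CPM. Here a mutant library, Mut1, was the highest and WT3 the lowest, and the 2 group means were close, at 51.5 and 53.2 CPM. The log2 fold change was -0.05 ± 0.60 (95% confidence interval -1.42 to 1.33, edgeR adjusted p = 0.989, exact permutation p = 0.971). Its sign depended on the library left out, at -0.61 without Mut1 and 0.39 without WT2, and on the scaling, at 0.01 with library size only. The antisense transcript Hand2os1 shares 461 exon bases with Hand2 and had 36.1, 13.4, 15.3 and 14.3 CPM in Mut1 to Mut4 and 32.2, 44.0, 13.9 and 9.50 CPM in WT1 to WT4, so its highest libraries were the same 3 as those of Hand2.

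Calb1, the calcium buffer calbindin (chromosome 4, 15881264 to 15908064, plus strand), did not share the pattern of the hedgehog and stromal genes. It had 90.7, 64.5, 152 and 73.6 CPM in Mut1 to Mut4. In WT1 to WT4 it had 42.7, 274, 132 and 198 CPM. WT1, among the highest libraries for Gli1, Nr2f2 and Hand2, was the lowest for Calb1, and Mut3 was the highest mutant library. Between genotypes the log2 fold change was -0.76 ± 0.52 (95% confidence interval -1.95 to 0.43, edgeR adjusted p = 0.695, exact permutation p = 0.429), with -1.08 without Mut3, -0.35 without WT2 and -0.45 in the fits of the TPM values.

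Lrp2, the endocytic receptor megalin (chromosome 2, 69424340 to 69586065, minus strand), was a gene of a single library. It had 248, 20, 0 and 1 counts in Mut1 to Mut4, that is 4.55, 0.406, 0 and 0.0175 CPM. The counts of WT1 to WT4 were 46, 11047, 9 and 88, that is 0.878, 199, 0.179 and 1.84 CPM. The value of WT2 was 43.8 times that of the next highest library, Mut1, and of all 18174 tested genes Lrp2 had the widest gap between WT2 and the other 7 libraries. Its fitted log2 fold change was -5.34 ± 2.50 (95% confidence interval -11.07 to 0.39, edgeR adjusted p = 0.555, exact permutation p = 0.257). It was -8.42 without Mut1, 0.38 without WT2 and -1 and -1.89 in the fits of the TPM values, and no alternative called it. A count of 0 in Mut3 allows up to 3 counts, or 0.0613 CPM, which covers counting error only.

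Il13ra2, the decoy interleukin 13 receptor (chromosome X, 147383476 to 147429192, minus strand), followed the same libraries at a lower level. It had 92, 7, 17 and 3 counts in Mut1 to Mut4, or 1.69, 0.142, 0.347 and 0.0525 CPM. WT1 to WT4 had 2, 753, 7 and 0 counts, or 0.0382, 13.6, 0.139 and 0 CPM. WT2 was again the highest library and Mut1 the next, and the other 6 had at most 17 counts, so Il13ra2 did not pass the count filter. With a filter of at least 1 count in any library, its log2 fold change was -2.60 ± 1.87 (edgeR adjusted p = 0.665). A count of 0 in WT4 allows up to 0.0628 CPM. The window printed above for Il13ra2 held TATA boxes and no GC box, and that of Lrp2 the reverse.

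Fst, the activin-binding protein follistatin (chromosome 13, 114452290 to 114458951, minus strand), had 2.55, 4.81, 8.48 and 4.15 CPM in Mut1 to Mut4. The WT libraries, WT1 to WT4, had 38.2, 34.4, 1.11 and 8.14 CPM. WT1 and WT2 were high, WT3 was the lowest of all 8, and the mutant libraries stayed within a 3.32-fold span at the low side. The log2 fold change was -2.04 ± 0.91 (95% confidence interval -4.13 to 0.06, edgeR adjusted p = 0.528, exact permutation p = 0.371), and the fits without 1 library gave -2.42 to -1.48. It was smaller in voom with quality weights, at -0.87, and in the fits of the TPM values, at -1.21 and -1.30. Mut1 was rich in stromal RNA like WT1 and WT2 but had 2.55 CPM of Fst, the lowest of the mutant libraries. The identifier of Fst in the file is 1 version older than that of GENCODE release M21, from which its position is taken, and Fst shares 115 exon bases with the antisense gene Gm47040, which had at most 0.266 CPM.

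Gata2, the partner of the progesterone receptor (chromosome 6, 88193891 to 88207032, plus strand), came nearest to the threshold. It had 110, 80.1, 86.3 and 97.0 CPM in Mut1 to Mut4. In WT1 to WT4 it had 217, 346, 113 and 109 CPM. The mutant libraries were close to each other, within 1.38-fold, and 3 of the 4 lay below every WT library, with Mut1 just above WT4. Between genotypes the log2 fold change was -1.07 ± 0.37 (95% confidence interval -1.92 to -0.22, edgeR unadjusted p = 0.0195, adjusted p = 0.384, exact permutation p = 0.0571). The fits without 1 library gave -1.27 to -0.62, the smallest without WT2, with adjusted p-values of 0.274 to 0.76. Without Mut1 the genotypes of Gata2 and Ptch1 no longer overlapped, where 12.1% of all tested genes did not, and without WT4 this held for Gata2 alone, where 10.4% did not.

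**Figure D2:**
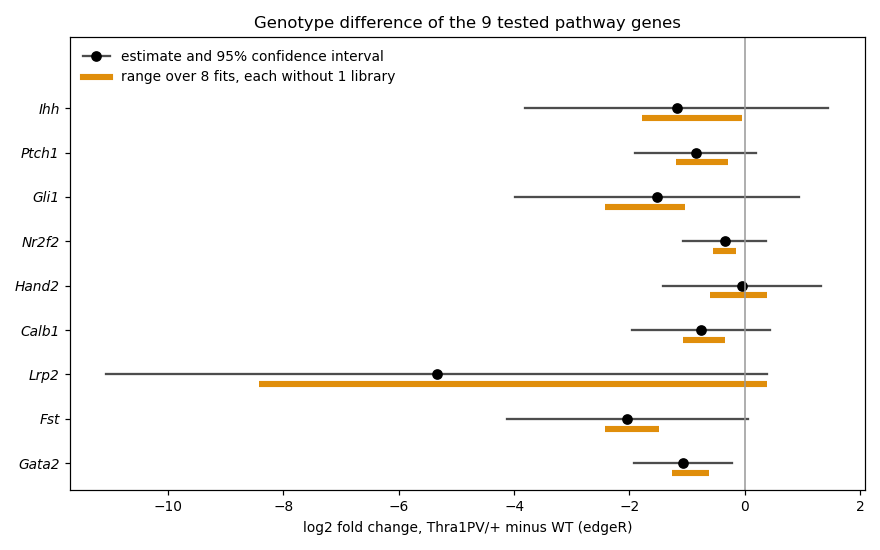
Log2 fold change of the 9 tested genes, Thra1PV/+ minus WT, from edgeR (black points, with lines for the 95% confidence interval) and the range of the same value over 8 fits that each leave out 1 library (orange bars). The interval of Gata2, -1.92 to -0.22, is the only one of the 9 that does not hold 0. This restates its unadjusted edgeR p under 0.05, as the interval is derived from the same test. The orange bars of Hand2 and Lrp2 cross 0.

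To compare levels between genes, the authors' TPM values (transcript abundance per length) were used, which are quantile-normalized across the libraries. The mean TPM over 8 libraries was 85.8 for Nr2f2, 68.2 for Gata2, 42.7 for Calb1, 40.6 for Hand2, 24.3 for Ihh, 13.3 for Gli1, 11.0 for Ptch1, 8.02 for Fst, 2.07 for Lrp2 and 1.63 for Il13ra2. The transcription factors Nr2f2 and Gata2 had the highest means, and the ligand Ihh had a higher mean than its receptor Ptch1. In the WT libraries the SD of Ihh was 38.8 TPM and that of Gata2 62.7 TPM. Each step between neighbours in this order was smaller than the SD within a genotype of at least one of the 2 genes. That SD is a spread between libraries, and does not measure the difference of 2 genes within a library. Fst was above its neighbour Lrp2 in every library, while the order of the other neighbouring pairs changed between libraries.

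Several members rose and fell together from library to library, and with the stromal markers. For each gene the deviation of log2 CPM from its genotype mean was taken in all 8 libraries, and the correlations are descriptions of these 8 libraries, which share their tissue composition. With the mean of the 12 stromal markers, none of which is a member, Hand2 had r = 0.96, Nr2f2 0.95, Ptch1 0.86, Gli1 0.86, Gata2 0.74, Ihh 0.70, Lrp2 0.61, Fst 0.42 and Calb1 -0.06. Hoxa10 and Hoxa11, which are among these markers, also belong to the list of stromal and decidual genes read below. With the simple epithelium markers the values had the opposite sign, at -0.98 for Nr2f2, -0.95 for Hand2, -0.90 for Gli1 and 0.29 for Calb1. Ihh, which is an epithelial gene, was thus correlated with the epithelial markers at -0.68. Ligand and target moved together, with r = 0.90 between Ihh and Gli1 and 0.69 between Ihh and Ptch1. The stromal pair Nr2f2 and Hand2 had r = 0.95, as had Gli1 and Hand2, while Calb1 had r between -0.18 and 0.34 with the other 8.

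**Figure D3:**
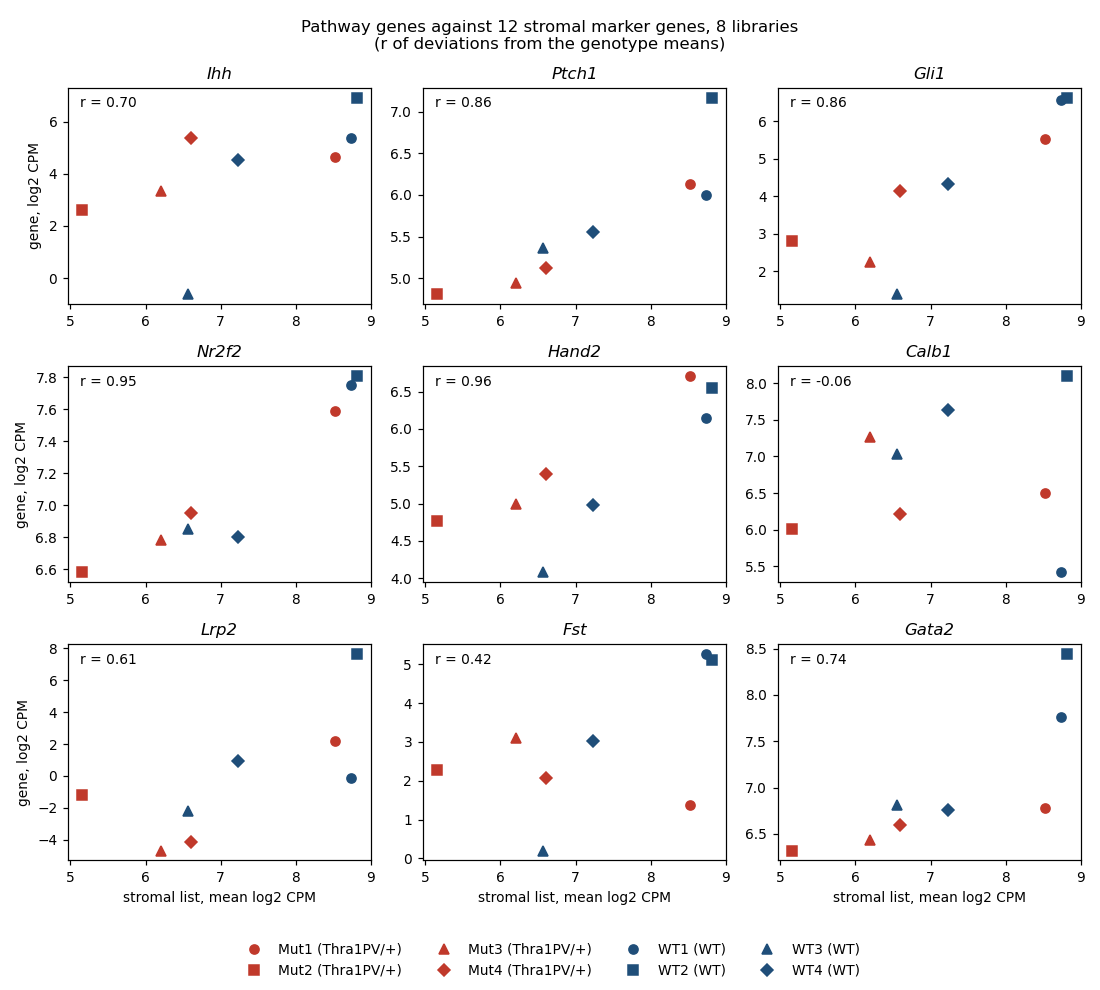
Log2 CPM of each tested gene against the mean log2 CPM of 12 stromal marker genes in the 8 libraries (red, Thra1PV/+, and blue, WT), with the Pearson r of deviations from the genotype means. Mut1, WT1 and WT2 lie at the right of every panel, and Nr2f2 and Hand2 rise with the stromal markers in both genotypes while Calb1 does not. Low values include a prior count, so a library with 0 counts is drawn near -5.

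The genes most like each member were sought among genes that averaged 2 or more in log2 CPM, by the same r over 8 libraries. Hand2 was matched most closely by Pknox2 (r = 0.998), the posterior Hox gene Hoxd11 (0.996) and Asph (0.994). The closest gene to Gata2 was another gene of that cluster, Hoxd4 (0.986), followed by Zfp516 (0.982) and Fbxo33 (0.976). Nr2f2 was nearest to Efnb3 (0.996), Sema5a (0.994) and Susd2 (0.993). Ihh was nearest to Gstm7 (0.996), Ptch1 to Cetn2 (0.991), and Gli1 to Dtd2 (0.996) and the planar polarity gene Prickle1 (0.992). The nearest genes to Calb1, Lrp2 and Fst were Prelid2 (0.981), Focad (0.991) and Gm43079 (0.995). The search ran over all genes above that level with 8 points each, and the values describe these libraries only.

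Because the libraries held different amounts of stromal and epithelial RNA, each gene was also set against the markers of each compartment, as log2 CPM of the gene minus the mean log2 CPM of the list. Relative to the stromal markers, Hand2 had its larger values in Thra1PV/+. Its values were -1.81, -0.38, -1.20 and -1.21 in Mut1 to Mut4 and -2.59, -2.27, -2.48 and -2.25 in WT1 to WT4, so that all 4 mutant libraries were above all 4 WT libraries. The share of all tested genes without overlap on this scale is not given, so how common such a separation is was not tested. The means were -1.15 ± 0.59 and -2.40 ± 0.17 (SD, n = 4), a difference of 1.25, and the exact two-sided permutation p = 0.0286 is the smallest this design can give. After Benjamini-Hochberg adjustment over the 18 values computed, 9 genes against each of 2 lists, it was 0.514, so this difference did not pass the correction. The denominator itself was lower in Thra1PV/+, by 1.22 on the log2 scale (exact permutation p = 0.171), and Hand2 in CPM had the exact p of 0.971 given above.

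Relative to the same stromal markers, Nr2f2 differed by 0.90 (exact permutation p = 0.143), Ptch1 by 0.45 (0.371) and Gli1 by 0.17 (0.886). For Nr2f2, 3 of the 4 mutant libraries lay above all WT libraries. Relative to simple epithelium the ligand Ihh differed by -0.29 (exact permutation p = 0.914), Calb1 by -0.79 (0.343), Gata2 by -1.14 (0.229), Fst by -1.43 (0.314) and Lrp2 by -3.74 (0.286). Gata2 set against the stromal markers differed by 0.31 (0.686), the opposite sign to its difference in CPM. Of the 18 values only that of Hand2 had an unadjusted p under 0.05, with the mean of the list as well as with its median.

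**Figure D4:**
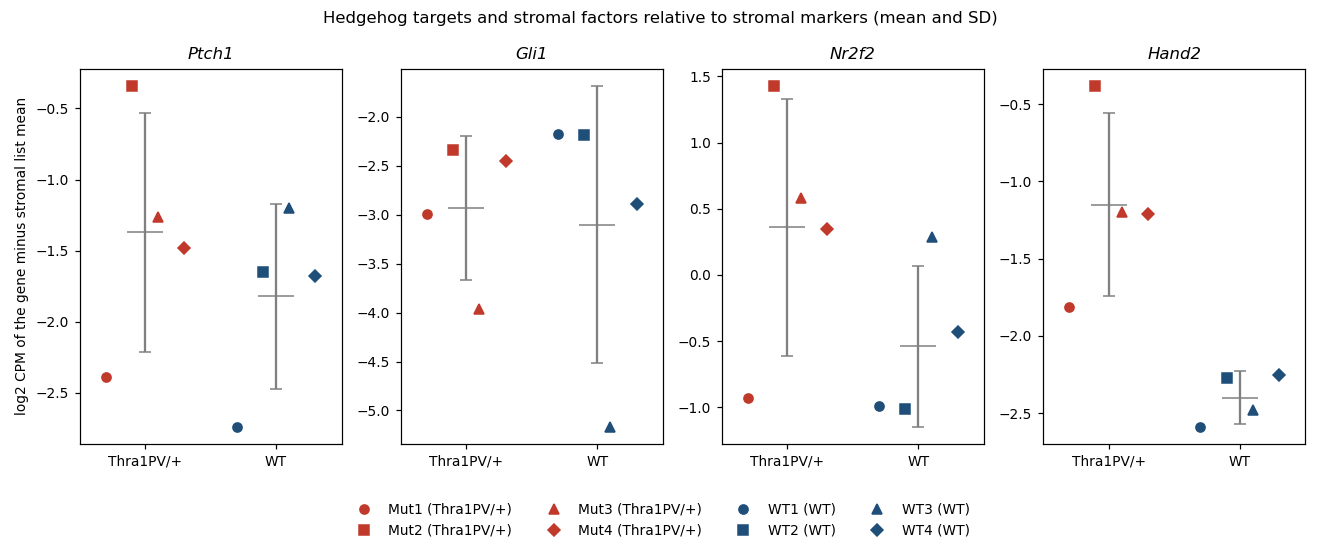
Log2 CPM of Ptch1, Gli1, Nr2f2 and Hand2 minus the mean log2 CPM of 12 stromal markers in each library, with the mean and SD of 4 libraries per genotype. For Hand2 the Thra1PV/+ values, -1.81 to -0.38, all lie above the WT values, -2.59 to -2.25, while the genotypes overlap for the other 3 genes. The share of all tested genes without overlap on this scale is not given.

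The neighbouring genes of the pathway were read from 8 lists: hedgehog signalling, the progesterone receptor and its partners, progesterone-responsive epithelial genes, stromal and decidual genes, implantation genes, the activin system, interleukin 13 receptors, and megalin and calcium handling. Of their 91 genes besides the members, 84 were tested and 0 were called by edgeR, against 0.99% of all tested genes. At an unadjusted p under 0.05, 2 were higher (Ncoa3 and Vdr) and 5 lower (Il6st, Klf9, Zbtb16, Alox15 and S100g) in Thra1PV/+, 7 of the 84, against 9.77% of all tested genes. Of the 84 genes 50 had a log2 fold change below 0, with a median of -0.18, and 4 had genotypes that did not overlap (Vdr, Ncoa3, Il6st and Acvr2b), against 6.04% of all tested genes. Neither count is above the share of all genes. Fits that each leave out 1 library were read for 36 of these genes that are named below. Trpv6, Lif, Ptgs2 and Ltf, also named below, were not among the 36. The log2 fold change of 28 of the 36 turned its sign or moved by more than 1.5 times when 1 library was left out, and 8 of these turned their sign. The others of the 36 were Acvr2b, Alox15, Hhat, Il6st, Klf9, Ncoa3, Vdr and Zbtb16.

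The progesterone receptor itself was not called. Pgr had 189, 37.1, 59.9 and 105 CPM in Mut1 to Mut4 and 91.2, 242, 68.4 and 62.1 CPM in WT1 to WT4, a log2 fold change of -0.25 ± 0.59 (edgeR adjusted p = 0.937). WT2 was the highest library for Pgr too, and Mut1 the next, and the direction turned with the library left out, from -0.73 without Mut1 to 0.43 without WT2. The estrogen receptor gene Esr1 differed by -0.21 ± 0.27 (adjusted p = 0.863), with 198 to 401 CPM in Thra1PV/+ and 230 to 413 CPM in WT. Among the partners of the receptor, the coactivator Ncoa3 had 62.3 ± 2.48 CPM in Thra1PV/+ and 48.6 ± 4.35 CPM in WT (SD, n = 4), a log2 fold change of 0.36 ± 0.11 (edgeR adjusted p = 0.319). The chaperone Fkbp5, a textbook progesterone and glucocorticoid target, had a log2 fold change of -0.91 ± 0.52, and Pgrmc2 and Ncoa2 of -0.21 and -0.22.

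In the hedgehog list 0 of 13 tested genes passed an unadjusted p of 0.05. Hhip, a decoy that binds the ligand and is itself a hedgehog target, had 2.06, 0, 0 and 0 CPM in Mut1 to Mut4 and 5.40, 13.3, 0 and 0.586 CPM in WT1 to WT4. As for Gli1, the highest libraries were WT2, WT1 and Mut1 and WT3 was among the lowest. The fitted log2 fold change of Hhip was -3.22 ± 2.16 (edgeR adjusted p = 0.689). The co-receptors Gas1 and Cdon had log2 fold changes of -1.84 ± 0.88 and -0.65 ± 0.32, which became -0.46 and -0.40 without WT1, where Gas1 had 466 CPM against 21.0 to 116 CPM in the other 7 libraries, and the palmitoylating enzyme Hhat 0.62 ± 0.35. The transducer Smo, which passes the signal inward, had 0.06 ± 0.29 (adjusted p = 0.973), and Shh had no count in any library and was not tested.

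Among stromal and decidual genes, Klf9 and Zbtb16 had an unadjusted p under 0.05. Klf9, a transcription factor known as a partner of the progesterone receptor and a thyroid hormone target, had 16.1, 3.59, 5.62 and 4.22 CPM in Mut1 to Mut4 and 54.1, 38.5, 10.7 and 17.1 CPM in WT1 to WT4. Mut1 alone of the mutant libraries reached the WT range. The log2 fold change was -2.02 ± 0.65 (edgeR adjusted p = 0.351), while DESeq2 called the gene at -2.00 (its adjusted p = 0.0516). Zbtb16, a progesterone-induced repressor of decidual stroma, had 2.46, 0.203, 0.266 and 0.525 CPM against 12.1, 17.3, 0.637 and 1.36 CPM, a log2 fold change of -3.18 ± 1.23 (edgeR adjusted p = 0.447), and Zbtb16 was likewise called by DESeq2 (adjusted p = 0.0664). Klf9 and Zbtb16 were the only other listed genes that DESeq2 called, where it called 3.64% of all tested genes. Hoxa10 and Foxo1 had log2 fold changes of -2.01 ± 1.12 and -0.42 ± 0.20. Hsd11b2, an enzyme that inactivates glucocorticoids, is named after its values were seen. It had 218, 2.27, 1.84 and 4.13 CPM in Mut1 to Mut4 and 104, 309, 57.4 and 28.2 CPM in WT1 to WT4, so that 3 mutant libraries lay far below all WT libraries. Its log2 fold change was -1.14 ± 1.55 (edgeR adjusted p = 0.872). Without Mut1, the mutant library with 218 CPM, it was -5.44 and called (edgeR adjusted p = 0.0843), where 0.797% of all tested genes were called. Without any other single library it was -1.47 to -0.15 and not called.

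Of the implantation list Il6st, which encodes the signalling receptor gp130 for leukemia inhibitory factor, had the smallest p-value of all 84. It had 269, 239, 256 and 334 CPM in Mut1 to Mut4 and 484, 496, 607 and 382 CPM in WT1 to WT4. The genotypes did not overlap. Mut1 lay between Mut3 and Mut4, and WT3, at 607 CPM, was the highest library. Il6st was not set against the markers of either compartment, so the part of tissue composition in its difference was not tested. The estimated log2 fold change was -0.84 ± 0.18 (edgeR p = 0.00152, adjusted p = 0.122, exact permutation p = 0.0286), short of both thresholds in edgeR, and it was -0.95 to -0.71 without any 1 library. In DESeq2 the gene passed the threshold on the adjusted p, at 0.00516, and missed only that on the fold, with a log2 fold change of -0.82. Its co-receptor Lifr had -0.49 ± 0.39, and Ctnnb1 and Bmpr1a -0.23 and -0.15.

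The epithelial genes gave further examples of the library WT2. S100g, a calcium-binding protein of uterine epithelium, had 36.0, 13.0, 14.6 and 17.3 CPM in Mut1 to Mut4 and 11.2, 343, 92.6 and 15.6 CPM in WT1 to WT4, a log2 fold change of -2.51 ± 1.04 (edgeR adjusted p = 0.486). It was -0.94 without WT2, -1.29 in voom with quality weights and -1.24 in both fits of the TPM values. Cyp26a1, which degrades retinoic acid, had 9.24 CPM in WT2 and at most 0.514 CPM in the other 7 libraries. The endoderm and gland factor Sox17 had 355 CPM in WT2 and 77.5 to 145 CPM in the others, whereas WT2 had the least Trpv6, at 31.8 CPM against 112 to 1240. Alox15, a lipoxygenase of progesterone-exposed epithelium, had 178, 60.1, 46.2 and 126 CPM in Mut1 to Mut4 and 132, 260, 415 and 244 CPM in WT1 to WT4, a log2 fold change of -1.36 ± 0.49 (edgeR adjusted p = 0.403). Klf15 had -1.07 ± 0.54 and Vdr, the vitamin D receptor, 1.01 ± 0.39 (edgeR adjusted p = 0.451), with 6.78 ± 1.05 CPM in Thra1PV/+ and 3.37 ± 1.84 CPM in WT.

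The partners of Fst, Il13ra2 and Lrp2 are given last. In the activin list 0 of 13 tested genes passed an unadjusted p of 0.05. Acvr2b, an activin receptor, had 3.23 ± 0.393 CPM in Thra1PV/+ and 2.23 ± 0.108 CPM in WT without overlap (log2 fold change 0.54 ± 0.24, edgeR adjusted p = 0.518), and Inhbb, Bmp7 and Fstl3 had -1.11, 0.75 and -0.52. The signalling chains Il13ra1 and Il4ra had means of 128 and 149 CPM in Thra1PV/+ and of 118 and 103 CPM in WT. All 4 tested genes of that list, Il13ra1, Il4ra, the shared chain Il2rg and the transducer Stat6, had log2 fold changes above 0, from 0.11 to 0.53 (Il13ra1 was -0.16 without Mut2), none of them with an unadjusted p under 0.05, and Il13 had no count in any library. The megalin chaperone Lrpap1 and adaptor Dab2 had -0.55 ± 0.32 and -0.63 ± 0.40, while the megalin partner Cubn was at 0.207 CPM in Thra1PV/+ and 0.152 CPM in WT and was not tested.

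**Figure D5:**
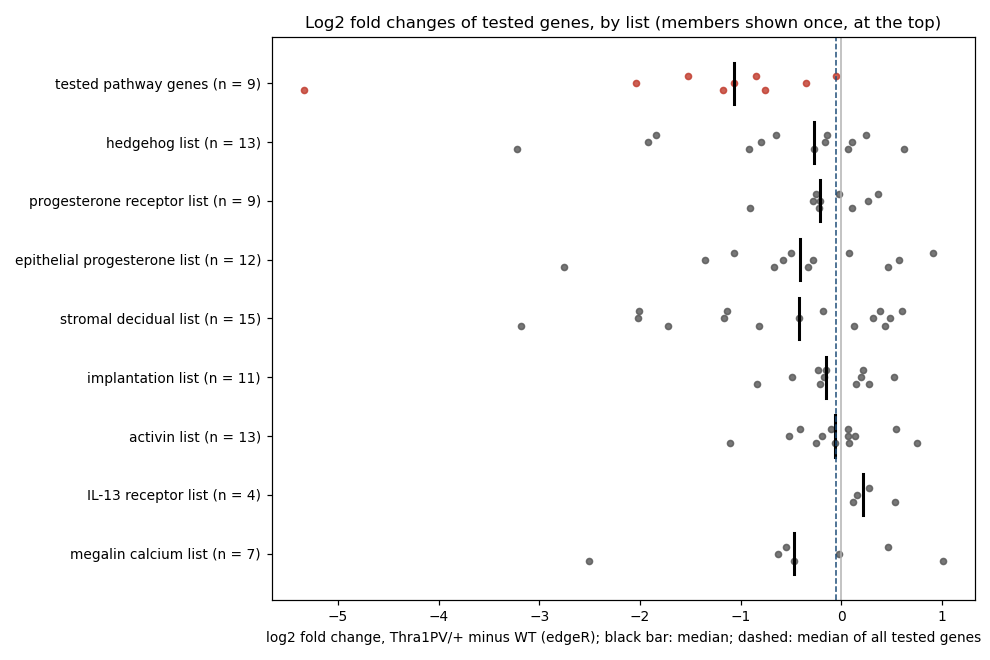
Log2 fold changes (Thra1PV/+ minus WT, edgeR) of the tested genes of 8 pathway lists without the members, and of the 9 tested members in red at the top. Black bars are medians, the dashed line is the median of all tested genes, -0.05. The median of the members, -1.07, lies further from 0 than those of the 8 lists, which range from -0.47 to 0.21. Without WT2, the highest library for 8 of the 10 members, the median of the 9 tested members is -0.29 and that of all tested genes -0.01. The medians of the 8 lists without WT2 are not given, so the lists cannot be set against the members there.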

How the data were processed

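RNA was isolated from laser-captured endometrium, and stranded mRNA libraries were sequenced in paired ends on an Illumina NextSeq sequencer. The authors trimmed reads with Trimmomatic, ran salmon against mouse build mm10 and deposited its estimated counts per gene without normalization. Versions are not given in the sources used here. The authors also deposited TPM values, whose sorted values differ by at most 0.291 between libraries, as after quantile normalization, and 1 further column of that table matches no sample and was not used.

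After rounding of the estimated counts, genotypes were compared with edgeR 4.0.16 (R 4.3.3; filterByExpr with minimum count 10 and minimum total 15, TMM, quasi-likelihood test with genotype as the only term, Benjamini-Hochberg adjustment over 18174 genes). Log2 CPM used a prior count of 2. DESeq2 1.42.0, limma 3.58.1, other normalizations and filters, a replicate block and the omission of each library were alternatives. The tests were also run on simulated data with large planted differences in genes that were not low. That run does not show how they perform for small differences or low counts. Of 52325 identifiers 52220 had a symbol. Positions are from GENCODE release M21 and promoters from RefSeq.

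The members and lists were chosen with earlier results of these data known. The design listed 20 compartment values, and 18 could be computed because Il13ra2 was not tested. Named genes were the members, Pgr, Esr1, Thra, every called gene and the 4 of each list with the smallest p-value, and the 3 genes most like each member. Smo, Shh, Hhip, Hsd11b2, Trpv6, Il13 and Cubn were added after their values were seen. One gene that this rule names is not reported here. Libraries of a genotype came from 4 mice each by the study's methods, while the labels do not name the animals, and p-values measure the spread between these libraries.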

Additional observations from a re-analysis of the deposited data

Results flagged for a closer look

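In groups of 4 libraries, a library was examined where its gap to the nearest of the others exceeded Dixon's 95% critical share of the group's range, on the log2 CPM scale. Of 122 groups 6 passed, where chance gives about 6.1 (1 in 20), and the values are given without explanation. Some of these genes were added after their values in WT2 or Mut1 were seen. Among Thra1PV/+ libraries Mut1 stood apart for Ncoa2, at 5.93 against 5.50 to 5.52, and for Hsd11b2, at 7.77 against 0.91 to 2.06. Mut1 also stood apart for Hhip, at 1.07 against -4.70 in the 3 mutant libraries without a count. Mut2 stood apart for Vdr, at 3.07 against 2.62 to 2.68. Among WT libraries WT2 stood apart for Pla2g10, a secreted phospholipase, at 4.28 against -3.03 to -2.12, and for Sox1ot at 2.35 against -1.34 to -1.32. None of the 9 tested pathway genes passed this criterion in either genotype, Lrp2 included, because the other WT values of Lrp2 are themselves far apart.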

How the results depend on the processing

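The count of pathway genes called was 0 under every alternative run: DESeq2, DESeq2's size factors, library size only, a filter of 1 count in any library or of 10 counts in every library, the replicate block, voom with quality weights, both TPM fits, an adjusted p of 0.05 and each library left out. Unadjusted p under 0.05, 1 gene in the reported fit, held for 2 genes in DESeq2, 3 with at least 1 count in any library, 3 in voom, 0 in the TPM fits and 0 to 3 without 1 library, 0 of them without WT2. The number of other listed genes called was 2 in DESeq2 and 0 to 1 without 1 library. Among all tested genes 3.64% were called in DESeq2 and 0.435% to 0.901% without 1 library. Genotypes did not overlap for 0 to 2 members without 1 library, against 7.31% to 12.1% of all tested genes in the same fits. Of the members' values under the alternatives, 141 kept their direction and 10 reversed. Hand2 became 0.01 with library size only and in both TPM fits, 0.07 with the replicate block, and without 1 library ranged from -0.61 to 0.39, and Lrp2 from -8.42 to 0.38. Deviations of log2 CPM from the genotype means, over 18174 genes, correlated at 0.27, -0.44, 0.34 and -0.16 between same-numbered libraries. These libraries were not treated as pairs. The replicate block gave 82 called genes in place of 180. All called genes numbered 81 with at least 10 counts in every library and 793 in DESeq2. Low members are limited by depth, 3 counts being 0.0525 to 0.0628 CPM. The counts over all genes were added after the data were seen.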

Other observations

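The gap between WT2 and the next highest library was largest for Lrp2, then for Rims3, Pla2g10, Cyp26a1 and Ano2, genes named after their values were seen. Rims3, a presynaptic protein gene, had 33.7 CPM in WT2 and at most 0.936 CPM in the other 7 libraries. Pla2g10 had 19.4 CPM in WT2 and at most 1.06 CPM elsewhere, and Ano2, a chloride channel gene, 10.5 CPM and at most 0.936 CPM. Il17rb, a receptor for interleukin 25, had 134 CPM in WT2 against 7.15 to 21.6 CPM. At the other end, WT2 was low for Ptgs2, at 4.33 CPM against 12.5 to 312, and for Lif, the cytokine needed for implantation, at 2.49 CPM, the lowest of the 8 values, which reached 84.3 CPM in Mut2 and 67.7 CPM in WT4 and fell to 2.64 CPM in Mut1. Ltf, an estrogen-induced gene, was lowest in WT2 as well, at 1290 CPM against 2850 to 16000 CPM. All these are values of 1 WT library, and no test compares it with the others.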
